A study of Caenorhabditis elegans with 2 samples.

Results

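The genes described here are 10 genes of the sex switch and of X chromosome dosage compensation in *Caenorhabditis elegans*, namely xol-1, sex-1, sdc-1, sdc-2, sdc-3, dpy-21, dpy-27, dpy-28, mix-1 and her-1. They were chosen from the measured values, because one of the highest peaks of the series lies upstream of xol-1, and the other genes were added for their roles. They are 10 of the 19985 protein-coding genes of the annotation, and all 10 were found in it. The signal and rank of the xol-1 peak are therefore given as a description, with no test.

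Chromatin immunoprecipitation followed by sequencing (ChIP-seq), which measures where a protein sits on DNA, was carried out against CEH-28, an NK-2 class homeodomain factor, fused to eGFP. The series holds 1 group with 2 replicates, both from whole L4 larvae (the last larval stage) of mixed sex of strain OP241. That strain carries the mutation unc-119(ed3) III and the transgene insertion wgIs241, which supplies the tagged ceh-28. Whole animals were used, so neither cell types nor sexes were separated, and the share of each sex is unknown. The 2 replicates shared 1 control, with no other genotype, stage or treatment to compare.

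In worms, the number of X chromosomes relative to autosomes sets sex through xol-1, which is active in XO embryos, where it promotes male fate, and kept low in XX embryos. Without XOL-1, the SDC proteins bring the dosage compensation complex, a condensin-like complex, to both X chromosomes of XX animals and lower their transcription, and they also repress the male gene her-1. The complex is recruited to X at short elements, many of which hold a motif with the letters GCGCAGG. The measurements here are of CEH-28 only, and binding of the dosage compensation complex was not measured.

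A summit is the highest point that the authors gave within a peak region, and signal is the authors' height of that summit, on a scale that is not stated. Each gene was examined over its annotated body and 10 kb either side. The pooled list, made from both replicates, held 20803 summits with a median signal of 18.9. The thresholded list, which the authors cut by the irreproducible discovery rate (IDR), held 1739 summits with a median of 89.8. Those 1739 were the summits of highest pooled signal, and 1733 of them had a region in both replicates. A place in that list therefore does not show that the replicates agreed at a given summit. Replicate 1 had 23410 summits with a median of 13.1, and replicate 2 had 26414 with a median of 6.96. The number of reads behind them is unknown. The lowest thresholded signal was 56.5 and the highest pooled signal outside the thresholded list was also 56.5, so the boundary was not marked by a gap.

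Thresholded summits lay near 4 of the 10 genes, xol-1, sdc-2, dpy-28 and her-1, and there were 5 of them. The sequence within 100 bp of each is shown because these windows hold the peaks that the results turn on. All are on the plus strand of ce11 (the same assembly as WBcel235), read from the RefSeq copy of the genome, with the summit at the middle base. Capitals mark ATCGAT, the word that most thresholded peaks of the series hold, and GCGCAGG on either strand (CCTGCGC is the same word on the minus strand).
xol-1, chrX:8036328-8036528: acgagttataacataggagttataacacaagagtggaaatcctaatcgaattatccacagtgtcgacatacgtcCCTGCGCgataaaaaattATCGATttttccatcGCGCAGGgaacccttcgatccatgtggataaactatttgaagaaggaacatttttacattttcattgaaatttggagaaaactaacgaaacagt
sdc-2, chrX:11522194-11522394: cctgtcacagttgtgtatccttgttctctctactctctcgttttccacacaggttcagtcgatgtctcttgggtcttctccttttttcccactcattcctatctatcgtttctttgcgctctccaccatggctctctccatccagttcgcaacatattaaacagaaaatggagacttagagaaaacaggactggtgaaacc
dpy-28 upstream summit, chrIII:10759138-10759338: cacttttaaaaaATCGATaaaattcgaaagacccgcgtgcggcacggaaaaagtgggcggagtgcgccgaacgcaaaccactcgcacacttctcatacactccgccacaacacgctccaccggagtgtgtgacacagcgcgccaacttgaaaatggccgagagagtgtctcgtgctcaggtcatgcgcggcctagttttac
dpy-28 inner summit, chrIII:10759739-10759939: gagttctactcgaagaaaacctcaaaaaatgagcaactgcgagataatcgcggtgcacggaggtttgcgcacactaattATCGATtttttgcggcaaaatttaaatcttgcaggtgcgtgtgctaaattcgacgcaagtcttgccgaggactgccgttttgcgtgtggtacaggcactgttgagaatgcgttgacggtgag
her-1, chrV:9704421-9704621: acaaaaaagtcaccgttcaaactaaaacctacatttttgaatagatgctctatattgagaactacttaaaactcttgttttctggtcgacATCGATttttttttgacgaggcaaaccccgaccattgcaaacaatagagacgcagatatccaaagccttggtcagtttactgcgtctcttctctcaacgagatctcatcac
The xol-1 window held 1 ATCGAT flanked by a GCGCAGG on each side, and the sdc-2 window held neither word.

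The count of genes with a thresholded summit was 4 of 10, beside a background of 23.5% over all 19985 protein-coding genes. On X it was 2 of the 4 members there, beside 22.9% of the protein-coding genes on X, and on the autosomes it was 2 of 6. Since xol-1 was chosen for its peak, it counts by construction and nothing is read from these counts. Without it they were 3 of 9 in all and 1 of 3 on X. The windows of the 10 genes were longer, with a median of 27916 bp, than those of all genes, with a median of 22026 bp, and their part in the count was not tested. They held a median of 7.5 pooled summits (range 1 to 10), against 4 (range 0 to 38) for all genes. Every one of the 10 had some pooled summit, as did 94.0% of all genes, a share near the background.

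The highest pooled signal per gene ranged from 14.3 at sdc-3 to 1193 at xol-1 with a median of 50.2, against a median of 33.7 over the 18777 protein-coding genes with any pooled summit. The order was xol-1, dpy-28 (403), her-1 (80.7), sdc-2 (63.4), dpy-21 (51.7), dpy-27 (48.7), sdc-1 (46.8), mix-1 (44.9), sex-1 (36.3) and sdc-3. In replicate 1 the 4 genes with thresholded summits also held the highest signals, at 849, 312, 53.1 and 50.6 for xol-1, dpy-28, her-1 and sdc-2. In replicate 2 they held 355, 90.4, 26.9 and 16.8 in the same order. The neighbours dpy-21, dpy-27, sdc-1, mix-1 and sex-1 were not separated, since their order differed between the replicates.

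**Figure D1:**
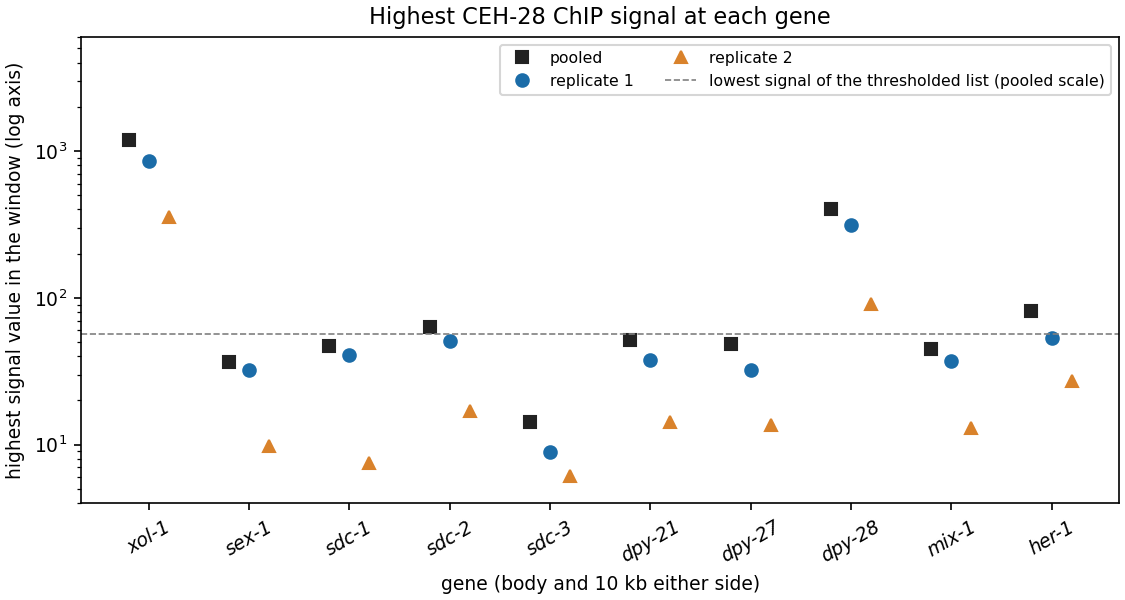
Highest signal value (log axis) within the body and 10 kb either side of each of the 10 genes, with 1 point each for the pooled list, replicate 1 and replicate 2; the dashed line is the lowest thresholded signal, on the pooled scale. The xol-1 points, at 1193, 849 and 355, are each the highest among the 10 genes, and dpy-28 is next in each list at 403, 312 and 90.4.

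The switch gene xol-1 (WBGene00006962, X:8041313-8044409, plus strand), which encodes a protein with a GHMP kinase fold that directs male development, had its peak far from its start. The region X:8036104-8036684 was 581 bp wide, and its summit at 8036428 lay between genes, 4885 bp upstream of the annotated start. Its signal was 849 in replicate 1 and 355 in replicate 2, and 1193 in the pooled list. It ranked 4 in each replicate, in the pooled list and in the thresholded list. The replicates placed it at nearly the same base, with replicate 1 on the pooled summit and replicate 2 6 bp away.

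Among summits on X, that upstream of xol-1 was the highest in all 4 lists. The next on X, at X:11093945-11094399, had 662 in replicate 1 and 207 in replicate 2, and 865 pooled. The xol-1 summit was thus 1.28-fold higher in replicate 1, 1.71-fold in replicate 2 and 1.38-fold in the pooled list. It stood 63.1-fold above the median of the pooled list. No replicate error can be set against these folds beyond the 2 values themselves.

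The xol-1 peak has other neighbours that lie closer than xol-1. Its region ended at 8036684, 1 bp before a tRNA gene (WBGene00022939, X:8036685-8036757, minus strand), and overlapped the first bases of the non-coding RNA gene C18A11.13, which starts 246 bp from the summit. A further tRNA gene (WBGene00022938) starts 1079 bp from the summit. Of the protein-coding genes, xol-1 has the nearest start, and C34D10.1 on the other side starts 6949 bp away. The body of C34D10.1 is slightly closer, at 4814 bp from the summit against 4885 bp for that of xol-1. The same summit was the highest one within reach of 4 protein-coding genes, xol-1, C18A11.4, C34D10.1 and unk-1, so the signal cannot be assigned to xol-1 from position alone.

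The rest of the xol-1 window was far below this peak. The other 8 pooled summits had signals from 16.2 to 48.6, beside a median of 18.9 over the pooled list. None passed the threshold, and none lay in the xol-1 body. The highest of the 8, at 8032717 and 8596 bp upstream of the start, had 36.4 in replicate 1 and 14.9 in replicate 2. It was at rank 2178 in the pooled list. Beyond the gene, a pair of summits in an intron of dim-1 had pooled signals of 33.8 and 33.8, and the rest were lower.

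**Figure D2:**
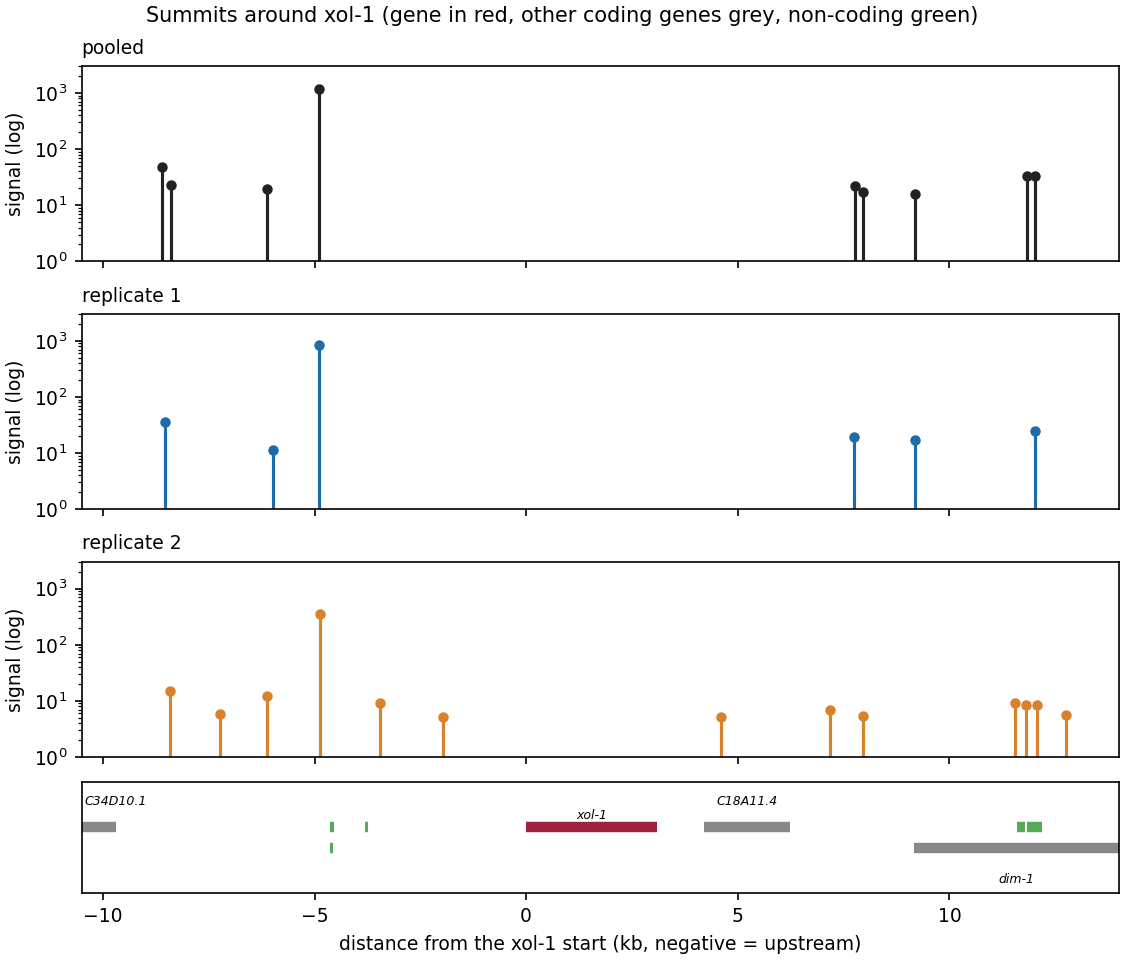
Summits of the pooled list, replicate 1 and replicate 2 by distance from the xol-1 start in kb (negative is upstream), with signal on a log axis and the annotated genes below. The single high summit at 4885 bp upstream stands at 1193, 849 and 355, and no other summit in the window passes 48.6 on the pooled scale.

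SEX-1, a nuclear hormone receptor that is an X signal element and represses xol-1, had no thresholded summit in its window. The gene (WBGene00004786, X:10201329-10205421, minus strand) had 6 pooled summits, none in its body or promoter. The highest, 7770 bp upstream in an intron of F44A6.3, had 32.4 in replicate 1, no region in replicate 2, and 36.3 pooled. The nearest thresholded summit lay 54577 bp from the sex-1 body.

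The 3 SDC genes differed. SDC-2, the protein that directs the complex to X in XX animals, was the only member with a thresholded summit in its own promoter, taken as 1000 bp upstream to 500 bp downstream of the start. This was 1 of 10 members, beside a background of 3.84%. The gene (WBGene00004746) spans X:11522707-11533450 on the plus strand, and the region X:11522102-11522485 had its summit 413 bp upstream of the start. Its signal was 50.6 at rank 1322 in replicate 1 and 16.8 at rank 1890 in replicate 2, and 63.4 at rank 1455 when pooled.

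The replicates placed the sdc-2 summit 1 and 94 bp from the pooled one. The nearest other protein-coding start was that of hpo-34, 3228 bp away on the other side. Inside the sdc-2 body were 5 weaker pooled summits. The highest, in an intron 3411 bp from the start, overlapped the antisense gene anr-16 and had 31.8 in replicate 1 and 13.1 in replicate 2. The other 4 lay in coding exons with pooled signals of 15.3 to 26.3.

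The genes sdc-1 and sdc-3, which encode zinc finger proteins that act with SDC-2, had no thresholded summit. At sdc-1 (WBGene00004745, X:16275763-16282534, plus strand) a summit 553 bp upstream of its start reached 46.8 pooled, with 40.7 in replicate 1 and no region in replicate 2. At sdc-3 (WBGene00004747, V:15039148-15048207, minus strand) the 1 pooled summit, in the 3' UTR of mcm-3, had a signal of 14.3 and a region in replicate 2 only, at 6.08. Of all protein-coding genes, 90.9% had a highest signal at or above that of sdc-3.

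**Figure D3:**
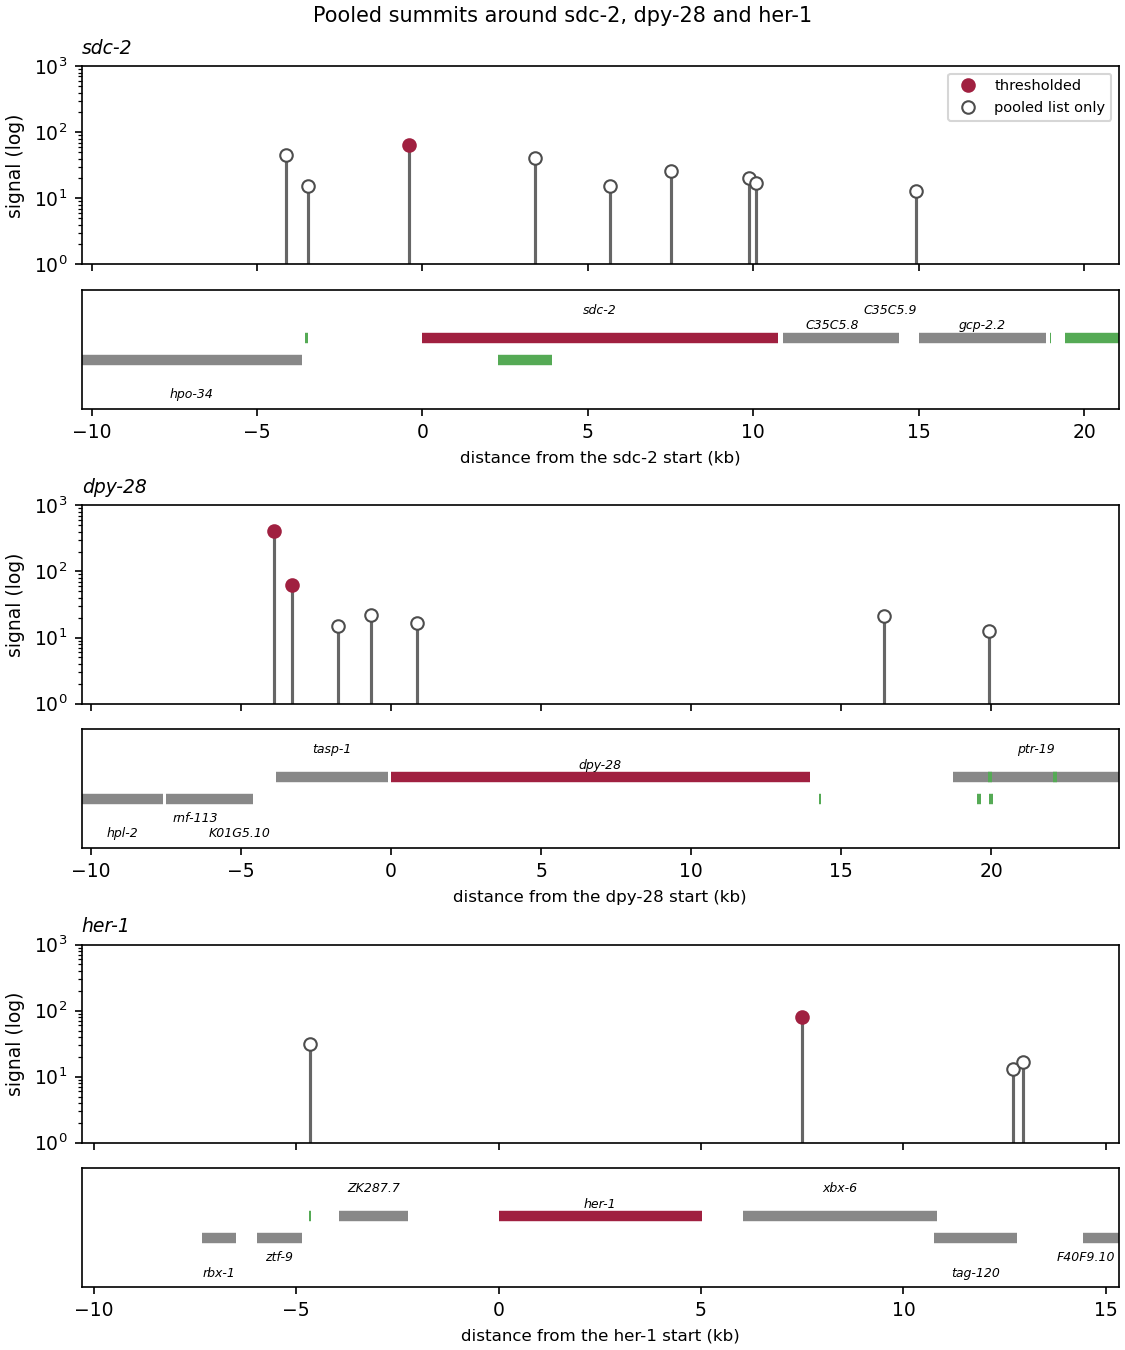
Pooled summits around sdc-2, dpy-28 and her-1 by distance from each gene's start in kb (negative is upstream), with signal on a log axis, thresholded summits filled, and gene bodies below. The thresholded summits lie 413 bp upstream of sdc-2, 3893 and 3292 bp upstream of dpy-28, and beyond the her-1 end, outside all 3 bodies.

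Among the condensin subunits of the set, only dpy-28, which encodes one of the CAP-D type, had thresholded summits, and both lay nearer to another gene. The gene (WBGene00001087) spans III:10763131-10777076 on the plus strand. The region III:10759042-10759388 had a signal of 312 at rank 62 in replicate 1 and 90.4 at rank 100 in replicate 2, and 403 at rank 67 pooled. Its summit was 3893 bp upstream of dpy-28, but 69 bp upstream of tasp-1 and 716 bp upstream of the oppositely transcribed K01G5.10. The gene tasp-1 is on the same strand as dpy-28 and ends 109 bases before it.

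The inner summit, in the region III:10759647-10760030, lay in an intron of tasp-1. It was uneven between replicates, with 58.0 at rank 1080 in replicate 1 and 7.39 at rank 11626 in replicate 2, and 61.8 at rank 1512 pooled. In the promoter of dpy-28 itself, the only pooled summit, 653 bp upstream and still in a tasp-1 intron, had 14.7 in replicate 1 and 7.70 in replicate 2. The high signal in the dpy-28 window therefore lay by the start of tasp-1, between it and that of K01G5.10, and not at that of dpy-28. It cannot be assigned to any of these genes from position alone.

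DPY-27, an SMC4-type ATPase found only in the dosage compensation condensin, MIX-1, an SMC2-type ATPase shared with the other condensins, and DPY-21, a demethylase that makes histone H4 lysine 20 monomethylation on X, had no thresholded summit. All 3 had weak summits in their own promoters, with pooled signals of 24.4 at dpy-27 (644 bp upstream), 33.2 and 31.7 at mix-1 (38 bp downstream, in the 5' UTR, and 745 bp upstream) and 20.6 at dpy-21 (210 bp downstream). The mix-1 summit in the 5' UTR had 18.7 in replicate 1 and 13.1 in replicate 2. Their highest summits lay elsewhere.

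For dpy-27 (WBGene00001086, III:3813018-3819679, minus strand) the highest had 32.5 in replicate 1 and 13.6 in replicate 2, in a coding exon of amx-1, 5590 bp upstream. For dpy-21 (WBGene00001080, V:17936282-17949193, minus strand) it had 37.4 in replicate 1 and 14.2 in replicate 2, 2226 bp upstream of its start and 530 bp from that of Y59A8B.24. For mix-1 (WBGene00003367, II:10824246-10841424, plus strand) it had 37.2 in replicate 1 and 8.92 in replicate 2, 9935 bp beyond its end. None of these lay in the promoter of its gene, and all were below the threshold in the pooled list, at 48.7, 51.7 and 44.9.

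The target of the pathway, her-1 (WBGene00001842, V:9697015-9702035, plus strand), encodes a secreted protein that promotes male fate. Its thresholded region, V:9704329-9704712, had its summit 2486 bp beyond the her-1 end, in an intron of xbx-6. The signal was 53.1 at rank 1234 in replicate 1 and 26.9 at rank 829 in replicate 2, and 80.7 at rank 1016 pooled. Of the 5 thresholded summits it had the lowest ratio of replicate 1 to replicate 2, 1.97. The median over all thresholded summits found in both replicates was 2.76, so a low ratio does not mark closer replicates. The summit was 1466 bp downstream of the xbx-6 start, and the her-1 body and promoter held no pooled summit.

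Counting weaker summits, 6 of the 10 genes had a pooled summit in their own promoter, beside a background of 34.1%. These were sdc-1, sdc-2, dpy-21, dpy-27, dpy-28 and mix-1, and at all but sdc-2 the promoter summits were below the threshold. The deposited −log10 q values have a ceiling of 3.76 in the pooled list, shared by 2882 summits. A summit at this ceiling lay near 8 of the 10 genes, all but sex-1 and sdc-3, beside a background of 37.5%. At dpy-21, dpy-27, mix-1 and sdc-1 such summits were below the IDR threshold. So were further summits at the ceiling near xol-1 (48.6) and sdc-2 (45.7), which made 6 in all. The 8 include xol-1, which was chosen for its peak, and the members' windows were longer than those of all genes. Nothing is read from this count, and the part of window length was not tested. Of the 68 pooled summits near the 10 genes, 20 lay in a member's body and 23 between genes, and of the 5 thresholded ones none lay in a member's body.

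**Figure D4:**
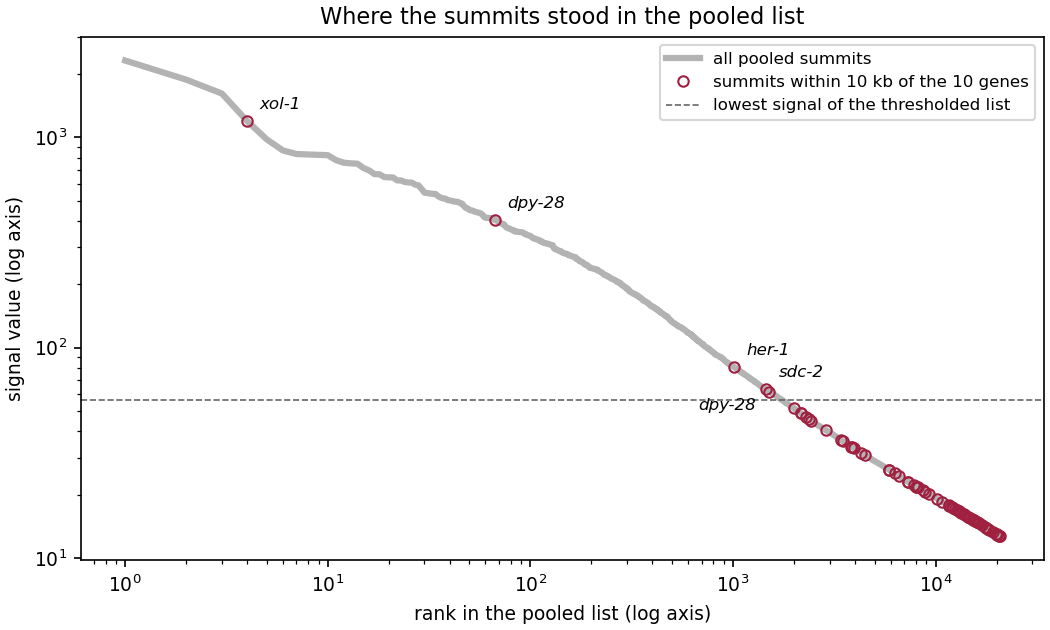
Signal against rank in the pooled list (both log axes), with all 20803 pooled summits as the grey line and the 68 summits near the 10 genes as circles; the dashed line is the lowest thresholded signal. The xol-1 summit is at rank 4 and the upstream dpy-28 summit at rank 67, and the other 3 thresholded summits are between ranks 1016 and 1512.

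Replicate 1 gave higher values than replicate 2 at all 5 thresholded summits, with a median ratio of replicate 1 to replicate 2 of 3.01 (range 1.97 to 7.86). Over the 1733 thresholded summits found in both replicates the median was 2.76, and 1724 were higher in replicate 1. The xol-1 ratio of 2.39 and the her-1 ratio of 1.97 were below that median, and the upstream dpy-28 ratio of 3.45 was above it. The inner dpy-28 ratio of 7.86 was reached or passed by 1.62% of the thresholded summits. Below the threshold, 33 of 63 member summits had a region in both replicates, with a median ratio of 1.95, against 1.97 over all summits below the threshold.

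**Figure D5:**
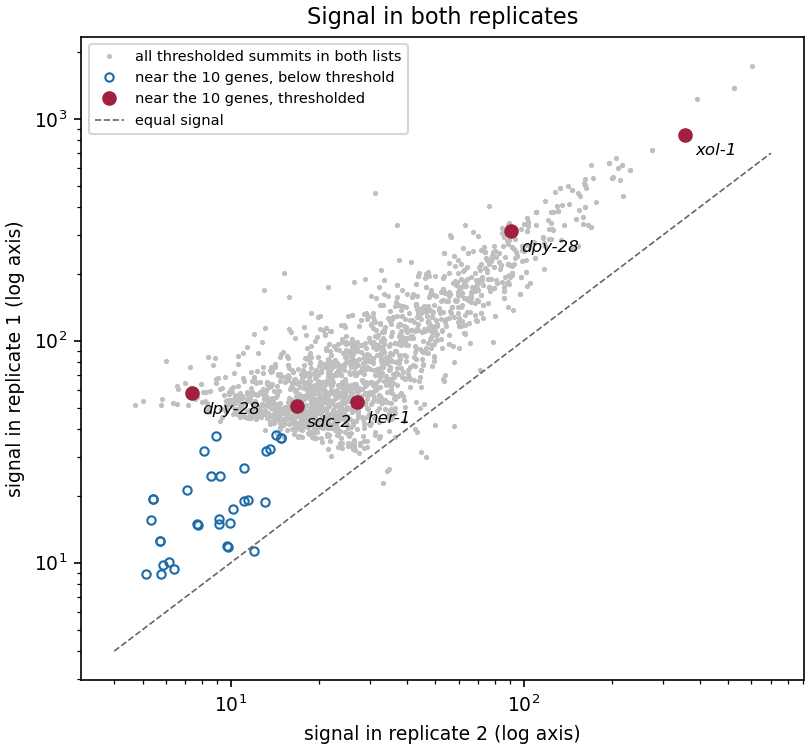
Signal in replicate 1 against signal in replicate 2 (both log axes) for thresholded summits found in both replicate lists (grey), the member summits below the threshold (open) and those above it (filled); the dashed line marks equal signal. All 5 thresholded member summits lie above the line, and the inner dpy-28 summit, at 58.0 and 7.39, lies farthest from it among them.

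In the printed windows, ATCGAT (a palindrome, so both strands read the same) occurred at 4 of the 5 thresholded member summits, 80%, against 76.1% of all 1739 thresholded summits and 6.50% of windows of the same length, 201 bp, laid end to end along the genome. The first base of the site lay 8 bp left of the summit at xol-1 and 10 bp left at her-1. At dpy-28 it lay 88 bp left of the upstream summit and 21 bp left of the inner one. Among member summits below the threshold, 17 of 63 held it, 26.98%, against 26.1% of all such summits. The members' shares were thus near those of their classes. The classes mix chromosomes, as 47.2% of thresholded summits on X and 79.7% of those on autosomes held the word, and 5 windows are few.

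The words of NK-2 class proteins, TCAAGTG and TTAAGTG on either strand, were in 0 of the 5 windows, a count that allows a share of up to 60%, against 2.82% of all thresholded summits and 4.47% of genome windows. Below the threshold they were in 2 of 63 member windows, 3.17%, against 4.39%. An absent match says only that these letters are not in these windows.

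The word GCGCAGG, searched on both strands, occurred in 1 of the 5 windows, that of xol-1, which held 2. It was in 25 of all 1739 thresholded windows (1.44%), in 0.383% of genome windows and in 0.380% of those on X. On X, 16 of 195 thresholded windows held it, 8.21%, against 9 of 1544 on the autosomes, 0.583%. Among X summits below the threshold, 24 of 3252 held it, 0.738%, and among the 63 member summits below the threshold 0 did, which allows up to 4.76%. Only 5 thresholded windows held 2 or more, and all 5 were on X. These counts describe letters and do not show that either protein binds them.

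At xol-1 both copies sat in longer matching stretches facing opposite ways, with 22 bp between them, and the ATCGAT lay between the copies. The stretches were chosen after the sequence was seen and are shown because they share their first 11 letters.
left copy, minus strand, chrX:8036399-8036410: tcGCGCAGGgac
right copy, plus strand, chrX:8036433-8036444: tcGCGCAGGgaa
Both lie within 30 bp of the summit.

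The protein-coding genes with replicate signals most like those of xol-1, by distance over the 2 replicates on the log10 scale and leaving out genes that share its summit, were ncx-1, sec-23, egrh-2, lep-2 and plx-1. These 5 genes share 2 summits. That of ncx-1 and sec-23, on chromosome V, had 727 in replicate 1 and 274 in replicate 2 (distance 0.130). That of egrh-2, lep-2 and plx-1, on chromosome IV, had 1226 in replicate 1 and 391 in replicate 2 (distance 0.165). The likeness is one of height only.

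Of 26 other genes of the pathway found in the annotation, 6 had a thresholded summit within 10 kb, beside the same background of 23.5%. The median of their highest signals was 31.7, against 33.7 over the 18777 protein-coding genes with any pooled summit. Among 5 partners of the complex, which were subunits and histone methyltransferases, only set-4 had one. With replicate 1 left out, set-1 was counted in its place, but that is not an IDR call. In the pooled list the highest set-1 summit, 44.5 at rank 2467, was below the threshold. SET-4, which makes the H4 lysine 20 dimethylation that DPY-21 acts on, had its summit 269 bp upstream of its start, with 57.6 in replicate 1 and 12.1 in replicate 2. Of 4 other signal elements and of 4 subunits of the other condensins, 0 had one.

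Among 13 later sex determination genes, 5 had a thresholded summit within 10 kb, beside the background of 23.5% over all protein-coding genes. These were tra-1, laf-1, dmd-3, fem-3 and fog-1, and the count was not tested. The highest summit was in an intron of tra-1, the zinc finger gene that ends the pathway, with 111 in replicate 1 and 41.3 in replicate 2, and its window held 3 ATCGAT sites. That of fog-1 also lay in its own intron, with 46.8 in replicate 1 and 10.7 in replicate 2. A further summit in the tra-1 3' UTR had 72.7 in replicate 1 and 20.3 in replicate 2. The gene laf-1 had 3 thresholded summits, all in introns of cox-6B, and 1 of them, 7546 bp downstream of the laf-1 start with 47.9 in replicate 1 and 8.38 in replicate 2, was also in a laf-1 intron. The others lay outside laf-1, and the highest had 84.9 in replicate 1 and 28.8 in replicate 2. That highest summit was in the promoters of nduc-2 and Y71H2AM.20. Those of dmd-3 and fem-3 lay outside the gene bodies. The dmd-3 summit, 11195 bp from the dmd-3 start, was in the promoters of Y43F8C.7 and mrps-28. The fem-3 summit, at 9107639, was just past the gene's end at 9107607. That of dmd-3 had 76.0 in replicate 1 and 7.28 in replicate 2, and that of fem-3 had 41.6 in replicate 1 and 19.6 in replicate 2.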

How the data were processed

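ChIP-seq of eGFP-tagged CEH-28 was deposited as peak lists on the ce10 and ce11 builds for 2 replicates of 1 group, tied to 1 shared control per the deposited lineage notes. The 4 ce11 lists were used, to match the annotation. The authors deposited a signal value for each summit, with no stated scale, and a −log10 q value. The p-value field was left unset. Names of the aligner and of the peak caller were not given in the sources used here. The pooled list came from both replicates' alignments and the control, and the thresholded list from the pooled and replicate lists, per the deposited lineage notes.

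Summits were ranked by signal within each list and assigned to each gene body and 10 kb either side, with genes from Ensembl release 115. A replicate value is the highest signal among that replicate's regions overlapping the pooled region, so close pooled summits can share one. Words were counted within 100 bp of summits on WBcel235. No hypothesis test was made. The lists hold no counts, so depth is unknown, and an upper limit of 3 counts is given where a count was 0. It covers counting error only. Counting and matching were checked on simulated data.

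The members, the gene lists and the words were chosen with earlier results of these data known. By rule, the text names the 10 members, pathway genes with a thresholded summit, neighbours and the 5 genes most like xol-1. Of 27 listed pathway genes 26 matched, and sea-3 did not. The stretches around GCGCAGG were chosen after the values were seen. Alternatives covered the window, the threshold, region overlap, the word window and either replicate left out. Analyses ran in Python 3.11.15 with pandas 2.3.3 and numpy 2.4.6, and figures were drawn with matplotlib 3.10.9.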

Additional observations from a re-analysis of the deposited data

How the results depend on the processing

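Of 27 alternative values, 21 stayed close to the reported value and 6 moved. The count of the 10 genes with a thresholded summit, 4 in the report, was 1 with 1 kb or 2 kb either side (sdc-2 in both), beside backgrounds of 7.84% and 9.97%, and 2 (xol-1 and dpy-28) when only thresholded summits at or above their median signal counted, beside 11.7%. It was 4 with 5 kb, beside 15.7%, and 5 with 20 kb, where dpy-27 was added, beside 36.2%, and 3 to 4 with a replicate left out, sdc-2 being lost without replicate 1. The other pathway genes, 6 of 26 in the report, were 5 with 1 kb or 2 kb either side, beside backgrounds of 7.84% and 9.97%. They were 5 with 5 kb, beside 15.7%, and 9 with 20 kb, beside 36.2%. At or above the median signal they were 2 (laf-1 and tra-1), beside 11.7%, and with a replicate left out they were 5 to 6. None of these counts was tested. Without replicate 1, 3 of the 6 were kept (fem-3, laf-1 and tra-1), and fem-2 and set-1 were added. Without replicate 2, 5 were kept, all but fem-3, and dpy-30 was added. None of the 4 lists used was an IDR list of 1 replicate, so counts with a replicate left out are not IDR calls. The xol-1 signal was 355 to 849 with a replicate left out, and its rank was 1 among X summits only. With words sought within 50 bp, ATCGAT was at 60% of the 5 summits, against 69.9% of all thresholded summits.

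No paired analysis was possible because both libraries belonged to 1 group. With 2 replicates and a signal scale that is not stated, a fold between summits has no error beyond the 2 values. As the lists hold no read counts, they set no limit on signal outside the listed regions.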

Other observations

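Of the 195 thresholded summits on X, 92 held ATCGAT within 100 bp (47.2%) and 16 held GCGCAGG (8.21%). Of the 10 X summits with the highest pooled signal, that upstream of xol-1 included, 6 held GCGCAGG within 100 bp and 2 held ATCGAT. The summit next to that of xol-1 in signal, at X:11093945-11094399 (865), held 2 GCGCAGG and no ATCGAT, and the seventh on X, at X:6296349-6296747 (412), held 2 and 1. Of the 11 thresholded windows with both words, 4 were on X.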
